A study of Homo sapiens with 11 samples.

Results

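The 9 genes described here, CDH1, EPCAM, CLDN3, CLDN4, ESRP1, GRHL2, OVOL1, RAB25 and ST14, are standard markers and regulators of the epithelial state. They were chosen by name and are 9 of the 19974 protein-coding genes on chromosomes 1 to 22 and X in the RefSeq gene table. Their chromatin was read from ChIP-seq of MDA-MB-231, a human triple-negative breast cancer line of mesenchymal type. WT cells had normal mdig protein and KO cells had none. Per the labels' protocols both came from CRISPR-Cas9 work and grew in the same medium with blasticidin, and whether the KO cells are 1 clone is not given in the sources used here. Mdig, also named MINA53 or RIOX2, is a JmjC-domain oxygenase, and its antibody is named MINA below. Each of 5 antibodies (H3K4me3, H3K36me3, MINA, H3K9me3 and H4K20me3) was used on 1 WT and 1 KO sample. For each of these 10 libraries the authors deposited a list of enriched intervals, which holds positions on hg19 and no height. No group was replicated, so every value below describes 1 library, and no difference was tested. Lost and gained, said of a gene start, mean that one list had an interval within 1 kb of it and the other had none. Said of an interval, they mean that no interval of the other list overlapped it.

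On hg19, to the nearest 10 bp, CDH1 lies on chromosome 16 from 68771190 to 68869450, EPCAM on chromosome 2 from 47596280 to 47614170, and RAB25 on chromosome 1 from 156030960 to 156040310. CLDN3 (73183320 to 73184610) and CLDN4 (73245190 to 73247020) are neighbours on chromosome 7. ESRP1 (95653360 to 95719700) and GRHL2 (102504660 to 102681960) lie on chromosome 8, and OVOL1 (65554500 to 65564700) and ST14 (130029680 to 130080260) on chromosome 11. CLDN3 is read from the minus strand and the other 8 genes from the plus strand. Of the 229591 intervals in the 10 lists, 45 lay on these genes or within 5 kb of them. RefSeq, on a later build, gives GRHL2 a longer span than used here and lists the non-coding GRHL2-DT as overlapping it. Any start further upstream was not covered. Exons and introns were not analysed here.

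Epithelial cells are held together by junctions built from CDH1 (E-cadherin), from claudins such as CLDN3 and CLDN4 that seal tight junctions, and from the adhesion molecule EPCAM. GRHL2 and OVOL1 are transcription factors that maintain this state, ESRP1 sets epithelial splicing, RAB25 is a small GTPase of vesicle recycling, and ST14 encodes the membrane protease matriptase. In the epithelial-mesenchymal transition, repressors of the ZEB and SNAIL families bind E-box motifs in promoters of such genes. H3K4me3 marks the starts of active and of some poised genes, H3K36me3 lies over transcribed gene bodies, and H3K9me3 and H4K20me3 mark silent chromatin. MDA-MB-231 cells are known to lack E-cadherin. RNA was not measured in this series, so silence of the 9 genes is background here and not a result.

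Promoter sequences of 3 of the 9 genes are in the RefSeq table (GRCh38.p14). They are shown because no other member had a sequence there, and each had another pattern in the lists. The CLDN3 start kept H3K4me3 in KO and lost MINA, and the CLDN4 start kept both and gained H4K20me3. The RAB25 start had neither H3K4me3 nor MINA within 1 kb in KO, although intervals further upstream remained. Each run gives the 250 bases before the gene start, 5′ to 3′ on the gene's strand, with the E-box CAGGTG, on either strand (CAGGTG or CACCTG), in capitals. The positions are chr7:73770271-73770520 (minus strand) for CLDN3, chr7:73830746-73830995 (plus strand) for CLDN4 and chr1:156060910-156061159 (plus strand) for RAB25.
CLDN3: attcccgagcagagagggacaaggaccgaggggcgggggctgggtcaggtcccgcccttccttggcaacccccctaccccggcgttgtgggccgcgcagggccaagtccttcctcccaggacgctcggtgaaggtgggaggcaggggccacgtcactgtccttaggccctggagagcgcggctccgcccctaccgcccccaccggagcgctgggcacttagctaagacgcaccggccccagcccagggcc
CLDN4: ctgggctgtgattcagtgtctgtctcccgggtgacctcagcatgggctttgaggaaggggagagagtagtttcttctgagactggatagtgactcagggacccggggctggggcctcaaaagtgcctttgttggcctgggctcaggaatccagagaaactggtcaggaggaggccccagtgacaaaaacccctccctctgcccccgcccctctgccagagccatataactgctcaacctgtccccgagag
RAB25: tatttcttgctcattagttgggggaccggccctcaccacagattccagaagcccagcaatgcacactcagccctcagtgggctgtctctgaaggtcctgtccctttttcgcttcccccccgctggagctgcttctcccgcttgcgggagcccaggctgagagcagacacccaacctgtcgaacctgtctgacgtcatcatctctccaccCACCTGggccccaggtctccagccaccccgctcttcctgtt

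In these windows RAB25 held 1 E-box, whose first base lay 41 bases before the start, and CLDN3 and CLDN4 held 0. Among the 35116 promoter entries that RefSeq gives, 17.5% held at least 1 in the same window. The dinucleotide CG occurred 19 times in CLDN3, 8 times in RAB25 and 4 times in CLDN4, beside a median of 11 over all entries. A match describes letters in the window and not binding.

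At the gene starts, H3K4me3 was present in WT at all 9 genes and in KO at 6 of them. A gene start was counted when an interval reached within 1 kb of it on either side. Tiles of the same 2-kb length along the genome were touched by H3K4me3 in 5.1% of cases in WT and in 4.4% in KO. That background covers all sequence, edges of intervals included, and not only gene starts, for which an hg19 annotation was not used here. The starts of CDH1, OVOL1 and RAB25 had H3K4me3 in WT and not in KO, and those of EPCAM, CLDN3, CLDN4, ESRP1, GRHL2 and ST14 had it in both. Of all tiles with H3K4me3 in WT, 20.4% had none in KO, against 3 of the 9 starts.

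**Figure D1:**
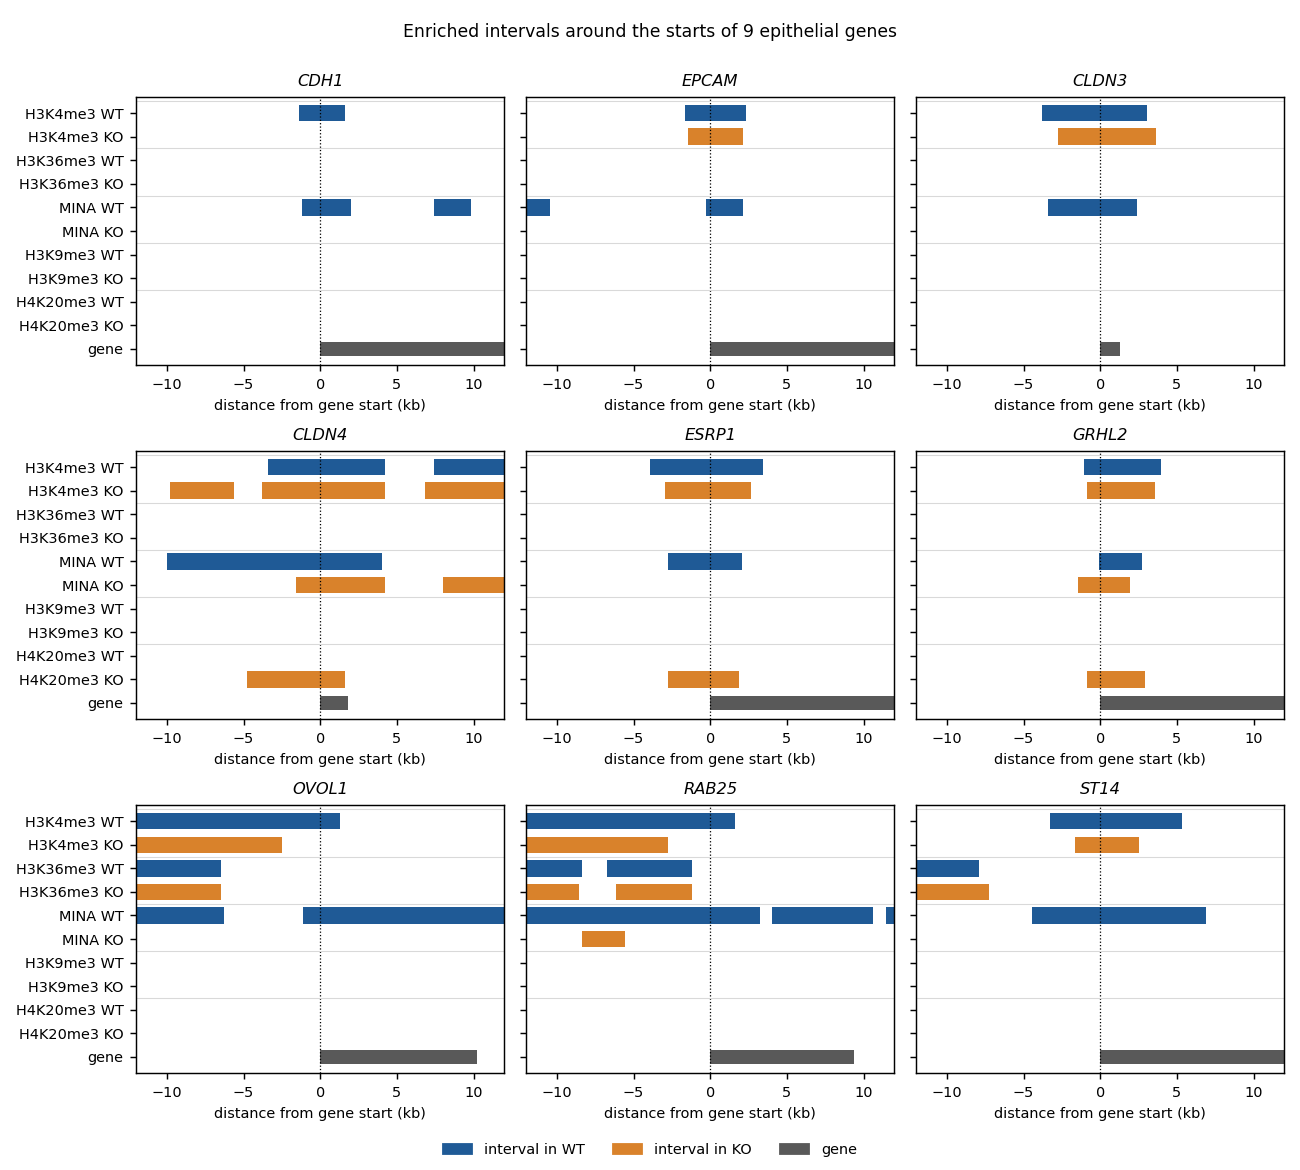
Enriched intervals within 12 kb of each gene start, with distance in kb along the direction of transcription on the horizontal axis and 1 row per antibody and genotype (blue, WT; orange, KO; grey, the gene). H3K4me3 and MINA lie over all 9 starts in WT, H3K4me3 over 6 and MINA over 2 in KO, and H4K20me3 over 3 starts in KO and 0 in WT.

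CDH1 lost its H3K4me3 interval entirely. In WT it spanned 3.0 kb on chromosome 16 from 68769801 to 68772800, from -1.39 to 1.61 kb of the start, and was the narrowest of the 9. In KO no interval lay on the gene or within 5 kb of it, and the one nearest to the start lay 89.4 kb upstream. Past the gene end, H3K4me3 lay from 103.6 to 110.2 kb of the start in WT and from 105 to 108.6 kb in KO. Over all WT H3K4me3 intervals 14.9% were not found in KO, and among the 74 in the 2 Mb on each side of CDH1 there were 7. CDH1 was the only gene of the 9 whose WT interval at the start had no KO partner.

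At OVOL1 and RAB25 the interval was cut back and not lost as a whole. The OVOL1 interval was 13.8 kb wide in WT, from 65542001 to 65555800, and 9.8 kb in KO, where it ended at 65552000, 2.5 kb short of the start (a window of 2.5 kb on each side, in place of 1 kb, just reaches it and gives 7 starts with H3K4me3 in KO). The RAB25 interval was 14.6 kb wide in WT, from 156018001 to 156032600, and 9.4 kb in KO, where it ended at 156028200, 2.76 kb short of the start. In both genes the part that remained lay on the upstream side, where RefSeq places AP5B1 next to OVOL1 and LAMTOR2 next to RAB25. The part absent from KO thus held the starts of the 2 epithelial genes.

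The 6 genes that kept H3K4me3 at their start differed in how much width they kept. ST14 had 8.6 kb in WT and 4.2 kb in KO, and ESRP1 had 7.4 and 5.6 kb. EPCAM had 4.0 kb in WT and 3.6 kb in KO, GRHL2 5.0 and 4.4 kb, and CLDN3 6.8 and 6.4 kb. CLDN4 was the one gene with a wider interval in KO, 8.0 kb against 7.6 kb in WT. Of the 8 WT intervals with a single KO partner 7 were narrower in KO, beside 65.6% of the 15690 such pairs in the genome. The median KO over WT width was 0.818 for the 8 and 0.894 for all pairs, so the direction at these genes was that of most of the list.

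**Figure D2:**
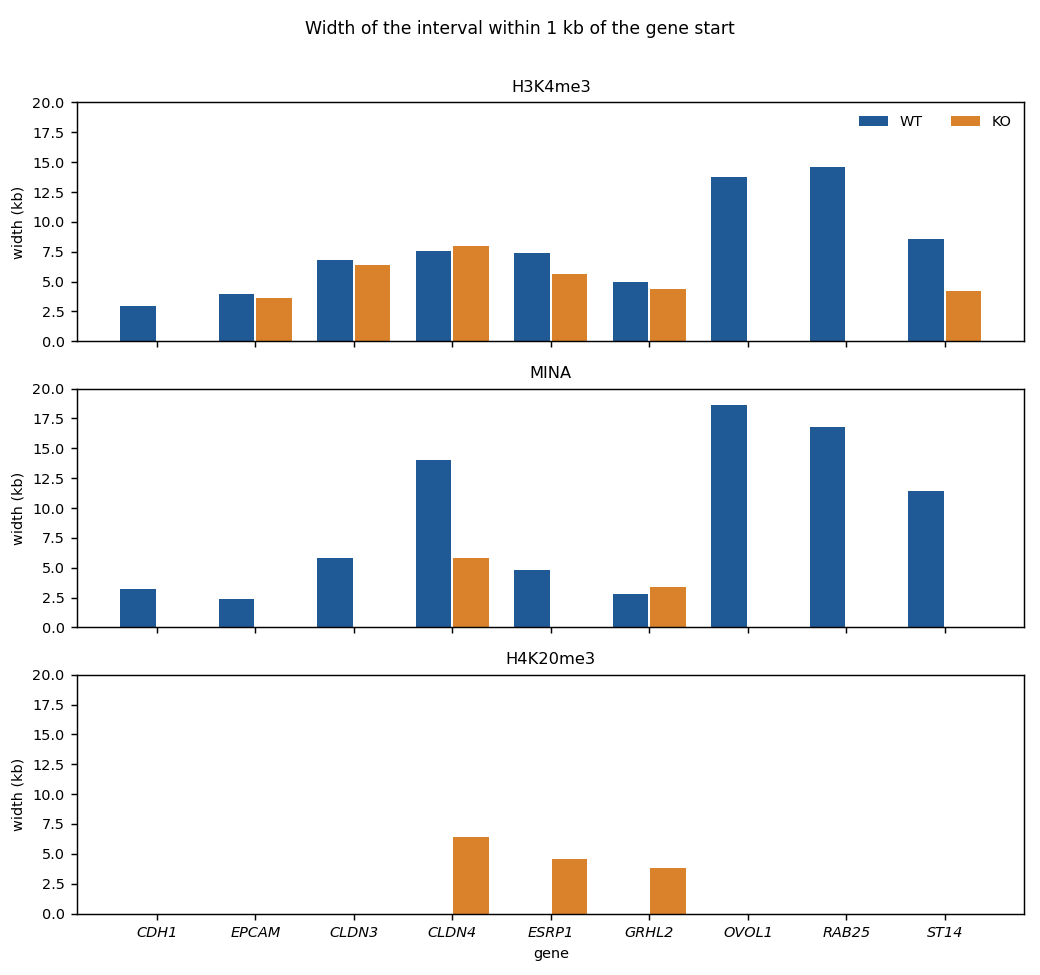
Width in kb of the interval that reached within 1 kb of each gene start, for H3K4me3, MINA and H4K20me3, with 1 library per bar (blue, WT; orange, KO) and no bar where no interval did. H3K4me3 bars in KO are absent at CDH1, OVOL1 and RAB25, MINA bars in KO are present at CLDN4 and GRHL2 alone, and H4K20me3 bars stand at CLDN4, ESRP1 and GRHL2 in KO alone.

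H3K36me3 covered none of the 9 gene bodies in either genotype. Together the genes span 433 kb without flanks. Of these 433 kb H3K36me3 covered 0 kb, against 10.8% of the span of the lists in WT and 10.8% in KO. It lay at 0 of 9 gene starts and touched 11.7% and 11.8% of the 2-kb tiles. Tiles cover all sequence and this mark lies over gene bodies, so starts and tiles are not like places. The only H3K36me3 within 5 kb was an interval upstream of RAB25, on the side of LAMTOR2, 5.6 kb wide in WT and 5.0 kb in KO, which ended 1.16 kb before the RAB25 start in both. Seen from H3K4me3, 39.3% of all WT intervals met H3K36me3, and 2 of the 9 at these starts did, those of OVOL1 and RAB25, through their upstream ends. The genes therefore carried H3K4me3 at the start in WT with no H3K36me3 over the body.

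MINA, the antibody against mdig itself, gave an interval at all 9 starts in WT and at 2 in KO, those of CLDN4 and GRHL2. The tile background was 4.84% in WT and 1.63% in KO. Of the tiles with MINA in WT 73.7% had none in KO, against 7 of the 9 starts, which is close to the list as a whole. All 9 WT H3K4me3 intervals at these starts met a WT MINA interval, beside 56.8% of all WT H3K4me3 intervals. In KO 2 of the 6 did, beside 34.7%.

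The WT MINA intervals differed widely in size among the genes. They were 18.6 kb at OVOL1, 16.8 kb at RAB25, 14.0 kb at CLDN4 and 11.4 kb at ST14. At CLDN3 the interval was 5.8 kb wide, at ESRP1 4.8 kb, at CDH1 3.2 kb, at GRHL2 2.8 kb and at EPCAM 2.4 kb. The OVOL1 interval, from 65553401 to 65572000, covered the whole gene and ran past its end. At RAB25 a second interval of 6.6 kb lay on the gene body, so that 91.4% of the gene was covered in WT and 0% in KO. Another WT interval of 12.6 kb, from 156042401 to 156055000, began within 5 kb past the RAB25 end. ST14 had a further WT interval of 13.2 kb over its end, from 130075401 to 130088600, and CDH1 one of 2.4 kb inside the gene from 68778601 to 68781000. Neither had a MINA interval in KO.

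In KO cells, which per the labels made no mdig, MINA stayed at the starts of CLDN4 and GRHL2. The widths there were 5.8 kb at CLDN4 against 14.0 kb in WT, and 3.4 kb at GRHL2 against 2.8 kb in WT. At GRHL2 the interval was thus no narrower in cells without mdig. Over the genes with 5 kb on each side MINA covered 85.7 kb in WT and 9.2 kb in KO, a ratio of 0.107, which was 0.070 without GRHL2 and 0.048 without CLDN3 and CLDN4. The ratio over the genome was 0.298. Of all WT MINA intervals 61.2% were not found in KO, and of the 13 at these genes 9 were not. Those found were at CLDN4, GRHL2 and RAB25. At RAB25 the KO intervals lay from -8.36 to -5.56 kb and from 20.2 to 22.4 kb of the start. Both places were inside WT intervals but outside the gene and the 5 kb on each side.

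H4K20me3 lay at 3 of the 9 starts in KO and at 0 in WT. The 3 were CLDN4 with 6.4 kb (73240401 to 73246800), ESRP1 with 4.6 kb (95650601 to 95655200) and GRHL2 with 3.8 kb (102503801 to 102507600). No H4K20me3 interval of WT lay on any of the 9 genes or within 5 kb. H4K20me3 touched 2.69% of the tiles in WT and 6.33% in KO, and 5.15% of the tiles without it in WT had it in KO. Of all KO H4K20me3 intervals 80.4% were not found in WT, so that new positions were the rule in that list.

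All 3 intervals overlapped an H3K4me3 interval of the KO list. The lists come from separate libraries, so whether both marks sat in the same cells was not tested. The length with H3K4me3 and H4K20me3 together in KO was 5.4 kb at CLDN4, 4.6 kb at ESRP1 and 3.8 kb at GRHL2, so that at ESRP1 and GRHL2 the whole H4K20me3 interval lay inside the H3K4me3 interval. In WT 0 of the 9 H3K4me3 intervals at the starts met H4K20me3, beside 10.6% of all WT H3K4me3 intervals. Of the 6 starts with H3K4me3 in KO 3 carried H4K20me3, beside 25.1% of all KO H3K4me3 intervals. None of these 3 starts had H3K9me3 in either genotype. The H4K20me3 and MINA intervals of KO overlapped at CLDN4 and GRHL2, the genes that kept MINA at the start. The ESRP1 start had H4K20me3 and no MINA in KO. The 3 starts without H3K4me3 in KO, those of CDH1, OVOL1 and RAB25, had no H4K20me3.

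H3K9me3 lay at 0 of the 9 starts in both genotypes, beside 10.9% of tiles in WT and 12.8% in KO. Tiles cover all sequence and are not like gene starts. Of all H3K4me3 intervals, a closer comparison, only 5.9% in WT and 5.6% in KO met H3K9me3. It lay inside 3 of the longer genes in WT. ST14 had 1 interval of 7.0 kb (130043201 to 130050200), which began 13.5 kb after the start. GRHL2 had 3.8 kb inside the gene (102580401 to 102584200) and 6.2 kb over its end (102678401 to 102684600). CDH1 had a pair of small intervals, 1.2 kb and 0.6 kb wide, which began 84.2 and 86.8 kb after the start.

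In KO 4 of these 5 H3K9me3 intervals were not found, beside 31.4% of all WT H3K9me3 intervals. The one that was found, at the end of GRHL2, was 1.8 kb wide and lay past the gene end used here. Over the genes with 5 kb on each side H3K9me3 covered 18.8 kb in WT and 1.8 kb in KO, a ratio of 0.0957, while over the genome KO covered 1.20 of the WT length. That ratio is 0 without GRHL2 or without the flanks. At CDH1 a KO interval of H4K20me3, 1.4 kb wide from 68855601 to 68857000, overlapped the place of the first WT H3K9me3 interval (68855401 to 68856600). RefSeq lists the pseudogenes RNA5SP429 and FTLP14 within CDH1, and their place relative to this interval was not tested.

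**Figure D3:**
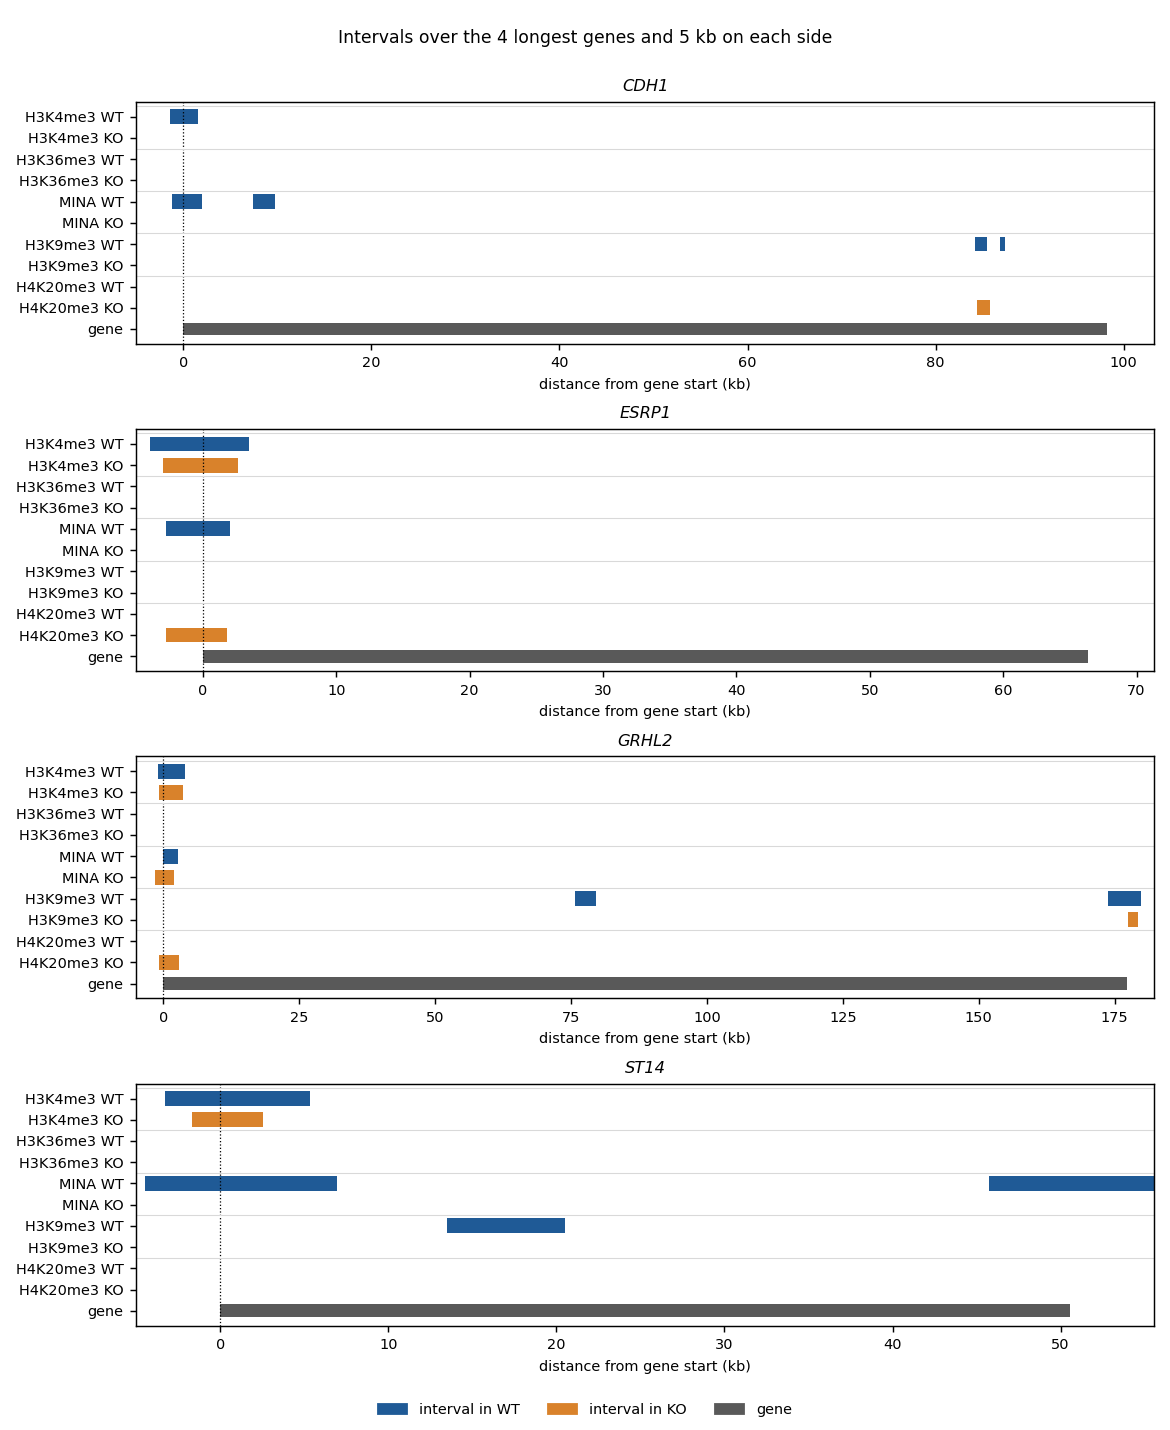
Intervals over CDH1, ESRP1, GRHL2 and ST14 with 5 kb on each side, distance from the gene start in kb on the horizontal axis and 1 row per antibody and genotype. H3K9me3 lies inside CDH1, GRHL2 and ST14 in WT, KO has 1 H3K9me3 interval of 1.8 kb past the end used for GRHL2, and the H3K36me3 rows are empty.

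The surroundings of the genes were compared in the same way, since long stretches of chromosomes differed between the WT and KO lists. In the 2 Mb on each side of CLDN3, without the gene and its flanks, KO covered 1.12 of the WT length of H3K4me3, and around CLDN4, which shares nearly all of this stretch, also 1.12. Around the other 7 genes the ratio ran from 0.703 at ST14 to 0.820 at CDH1. For MINA it was 0.932 and 0.911 around the claudins and from 0.0370 around ST14 to 0.512 around ESRP1. H4K20me3 covered 13.2 kb in WT and 702 kb in KO around CLDN3, a ratio of 53.2 (49.3 around CLDN4), against a ratio of 0.594 to 1.97 around the other 7.

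Read beside these values, CLDN4 gained H4K20me3 in a stretch where that list was longer in KO as a whole. ESRP1 and GRHL2 gained it at their starts in stretches where the list was shorter in KO, with ratios of 0.854 and 0.660. The H3K9me3 ratio was 1.79 around CLDN3 and 1.76 around CLDN4 and lay below 1 around the other 7. Around ST14 it was 0.166, where 74 of 98 WT intervals were not found in KO, and around GRHL2 0.290, where 26 of 40 were not. Around CDH1 the ratio was 0.676, where 5 of 17 were not. The H3K9me3 intervals lost at ST14 and GRHL2 therefore lay in stretches where most WT intervals were missing from KO. For H3K36me3 the ratios ran from 0.893 around EPCAM to 1.28 around CLDN4.

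**Figure D4:**
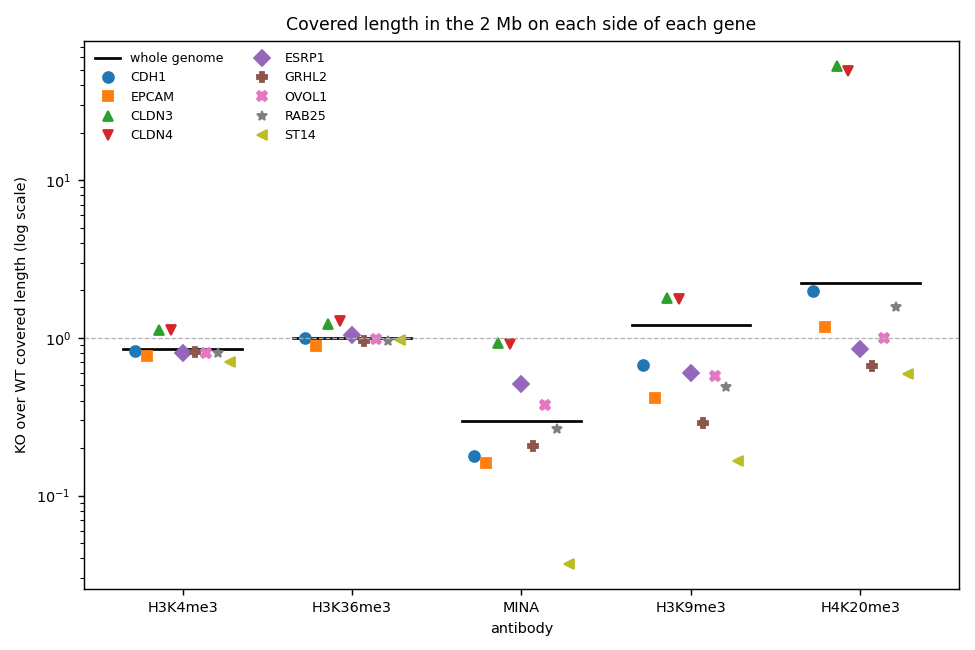
KO over WT covered length (log scale) in the 2 Mb on each side of each gene, the gene and 5 kb on each side left out, by antibody, with 1 symbol per gene and a black line for the whole genome. CLDN3 and CLDN4 share most of their stretch and are the 2 highest for every antibody, with 53.2 and 49.3 for H4K20me3, and ST14 is the lowest for H3K4me3, MINA, H3K9me3 and H4K20me3.

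Taking the genes and flanks as a whole (523 kb), H3K4me3 covered 55.3 kb in WT and 37.0 kb in KO. This ratio of 0.668 stood beside 0.844 for the genome and 0.819 for the surroundings of the 9 genes. The H3K4me3 ratio depended on the region: it was 0.812 with a flank of 10 kb, close to the surroundings, and 0.614 with no flank. Without CLDN3 and CLDN4 it was 0.551. H4K20me3 covered 0 kb in WT and 16.2 kb in KO, of which 9.8 kb remained without CLDN3 and CLDN4. That was 0% and 3.1% of the 523 kb, beside 2.2% of the span of the lists in WT and 4.9% in KO. Over the genome H4K20me3 in KO covered 2.23 of the WT length, so the list was longer in KO as a whole. Counting only whether an interval was present within 1 kb of the start, EPCAM, CLDN3 and ST14 differed between WT and KO in MINA alone. By the same count ESRP1 differed in MINA and H4K20me3, CDH1, OVOL1 and RAB25 in H3K4me3 and MINA, and CLDN4 and GRHL2 in H4K20me3 alone. ST14 also had the lowest KO over WT width of H3K4me3 (0.488) among the 6 starts that kept it.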

How the data were processed

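The deposited file holds, for each ChIP library, the start and end in bp of the intervals that the authors found enriched on hg19, and no other value such as a height or score. The submitters' processing notes name BWA and SICER 1.1. Settings of the caller, scaling and the role of input DNA were not given in the sources used here. Read depth is unknown, so a longer list can reflect more reads or better enrichment, and a missing interval means below the authors' threshold.

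Intervals on chromosomes 1 to 22 and X were read with Python 3.11.15 and numpy 2.4.6. All lie on a 200-bp grid. A member had an interval when at least 1 bp overlapped the gene with 5 kb on each side, or the 1 kb on each side of its start. Spans came with the gene list; strands came from RefSeq for CLDN3, CLDN4 and RAB25 and from general knowledge for the others. The overlap counting was checked against bedtools 2.31.1, with no difference, and tested on simulated data. Shares over whole lists have 95% Wilson intervals within 0.747 points, for counting error only. All 9 members are described, and neighbours are named from RefSeq (GRCh38.p14) without position. The members and lists were chosen with earlier results of these data known. The input library was not used.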

Additional observations from a re-analysis of the deposited data

How the results depend on the processing

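Of 146 alternative values for 37 results, 128 stayed within 1.5 times the value reported and 18 did not. Starts with H3K4me3 in KO were 7 with a window of 2.5 kb, where OVOL1 was added. The counts of gene starts with H3K4me3, MINA, H3K9me3 or H4K20me3 were within that range under windows of 0.5 and 2.5 kb, for intervals of at least 2 kb and after merging within 5 kb. With no flank the genes with H3K36me3 were 0 in WT and 0 in KO, and with 10 kb they were 3 and 3, and 1 start had H3K36me3 within 2.5 kb in each genotype. Genes with MINA in KO were 4 with a flank of 10 kb. Genes with H3K9me3 in KO were 0 with no flank and 0 for intervals of at least 2 kb. The KO over WT length of MINA was 0.070 without GRHL2 and 0.048 without CLDN3 and CLDN4. That of H3K9me3 was 0 with no flank, without GRHL2 and for intervals of at least 2 kb. The KO length of H4K20me3 was 7.79 kb with no flank and 9.8 kb without CLDN3 and CLDN4. With the 50 bases after the start added, CLDN3 held 1 E-box and RAB25 held 2. The flank and the left-out genes change the region itself, and causes beyond that were not tested. No paired analysis was possible because each group has 1 library. Depth is unknown, so intervals absent from a list may lie below the authors' threshold.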

Other observations

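The promoter windows of other genes of the epithelial-mesenchymal transition were searched for the same E-box, as a description of sequence. Of 20 further epithelial genes 12 were in the RefSeq table, and 8 of these held CAGGTG or CACCTG in the 250 bases before a start: CLDN7, CRB3, DSP, ELF3, GRHL3, PATJ, SPINT1 and TJP3. Of 7 repressor genes 4 were in the table and 1 held it, ZEB1. The mesenchymal genes VIM, CDH2 and FN1 were all 3 in the table and 0 held it. Over all entries the share was 17.5%, and several genes have more than 1 entry, which raises the chance of a match for them. The chromatin of these genes was not analysed here.

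Beyond the gene starts, CLDN4 had a KO H3K4me3 interval of 8.8 kb (73252001 to 73260800) whose near edge entered the 5 kb downstream of the gene, on the side of METTL27. A WT H3K4me3 interval lay at the same place, from 7.41 to 16.4 kb of the start, just outside those 5 kb. EPCAM had H3K4me3 in both genotypes and MINA in WT and no other interval within 5 kb. The nearest H3K9me3 to its start lay 123.3 kb away in WT and 128.5 kb in KO.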
